A study of Homo sapiens with 12 samples.

Results

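The 10 genes described here encode effectors and secreted factors of the ATF4 stress pathway: GDF15, ADM2, STC2, VLDLR, CHAC1, CTH, ASNS, GPT2, PCK2 and NIBAN1. They were taken by gene symbol from the deposited table, which lists 18668 genes, and all 10 were found there, each on a row of its own. All 10 passed the filter on low counts, as did 17702 of the 18668 genes. The cells were 22Rv1, an established human prostate cancer line that grows without androgens. Wild-type 22Rv1 cells were treated for 24 h with vehicle, with enzalutamide (a drug given for prostate cancer), with an autophagy-activating ligand (labelled 22Rv1_1021), or with a degrader (labelled 22Rv1_2024). Each of the 4 groups had 3 libraries, described as biologically independent triplicates. Doses and the chemical relation between the ligand and the degrader are not given in the sources used here, so the compounds are compared as used, without matched doses.

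ATF4 is a transcription factor whose protein is made when kinases that sense amino acid shortage, unfolded protein or other stress phosphorylate the initiation factor eIF2, a state called the integrated stress response. ATF4 and its partners of the C/EBP family bind composite DNA elements and raise genes that make or import amino acids, handle glutathione and send signals out of the cell. Asparagine synthetase, encoded by ASNS, is a long-known target of this kind, and GDF15 is a hormone that stressed cells release.

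Polyadenylated RNA was sequenced to 55.5 to 77.2 M counted reads a library, and the member with the fewest reads in any library, CHAC1, had at least 151. Levels are in CPM, reads per 1 M reads of the library after scaling by the trimmed mean of M values. Changes are log2 fold changes from edgeR's quasi-likelihood test on all genes. Their standard error (SE) was computed from the change and that test's F statistic, and confidence intervals were built on this SE. A gene was called at a Benjamini-Hochberg adjusted p under 0.05, taken over all 17702 genes tested. The 9 markers of luminal prostate epithelium looked at were all detected and summed to 1688 to 2504 CPM in each library, with KRT8 at 429.6 to 852 CPM. The 5 stromal markers summed to 19.95 to 24.4 CPM and the 2 leukocyte markers to 5.83 to 9.17 CPM. The basal markers KRT5, KRT14 and TP63 and the endothelial markers PECAM1, VWF and CDH5 were not among the genes listed. Neither were the stromal marker COL1A2 and the leukocyte markers PTPRC and CD3E, so the levels of all these are not known here. Stromal sums were 19.95 to 22.0 CPM with the degrader against 22.6 to 24.2 CPM with vehicle. Of the 5 stromal markers, 0 were called higher and 0 lower, beside 16.4% of all genes in each direction. Luminal sums were 1688 to 1787 CPM with the degrader against 2318 to 2504 CPM with vehicle. Of the luminal markers, 7 of 9 were called lower, beside 16.4% of all genes. With enzalutamide the luminal sums were 1932 to 2086 CPM, with 4 of 9 called lower, beside 1.09% of all genes. Leukocyte sums were 5.83 to 7.64 CPM with the degrader against 8.29 to 8.98 CPM with vehicle. These sums were nearly all CD68, at 5.65 to 8.95 CPM over all libraries, while CD14 was at 0.186 to 0.398 CPM. Of the leukocyte markers, 1 of 2 was called lower, beside the same 16.4%. The part of these markers in the changes below was not tested. In bulk RNA, fewer cells with a transcript and less transcript per cell cannot be told apart. Each p-value sets a difference against the spread between these libraries, estimated over all 4 groups with information shared across genes.

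All 10 members were higher in every degrader library than in every vehicle library. Non-overlap in this direction was seen for 23.1% of all genes tested. By edgeR, 9 members rose against vehicle and 0 fell, while 16.4% of all genes were called higher. The member that did not pass was VLDLR. CHAC1, NIBAN1 and GDF15 rose most, by 5.11-, 4.44- and 3.78-fold, and PCK2 and ADM2 rose by 2.43- and 2.42-fold. These 5 had a log2 fold change of at least 1, and 1.16% of all genes were called higher at that size. The median log2 fold change of the 10 members was 1.10, beside 0.01 for all genes tested.

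**Figure D1:**
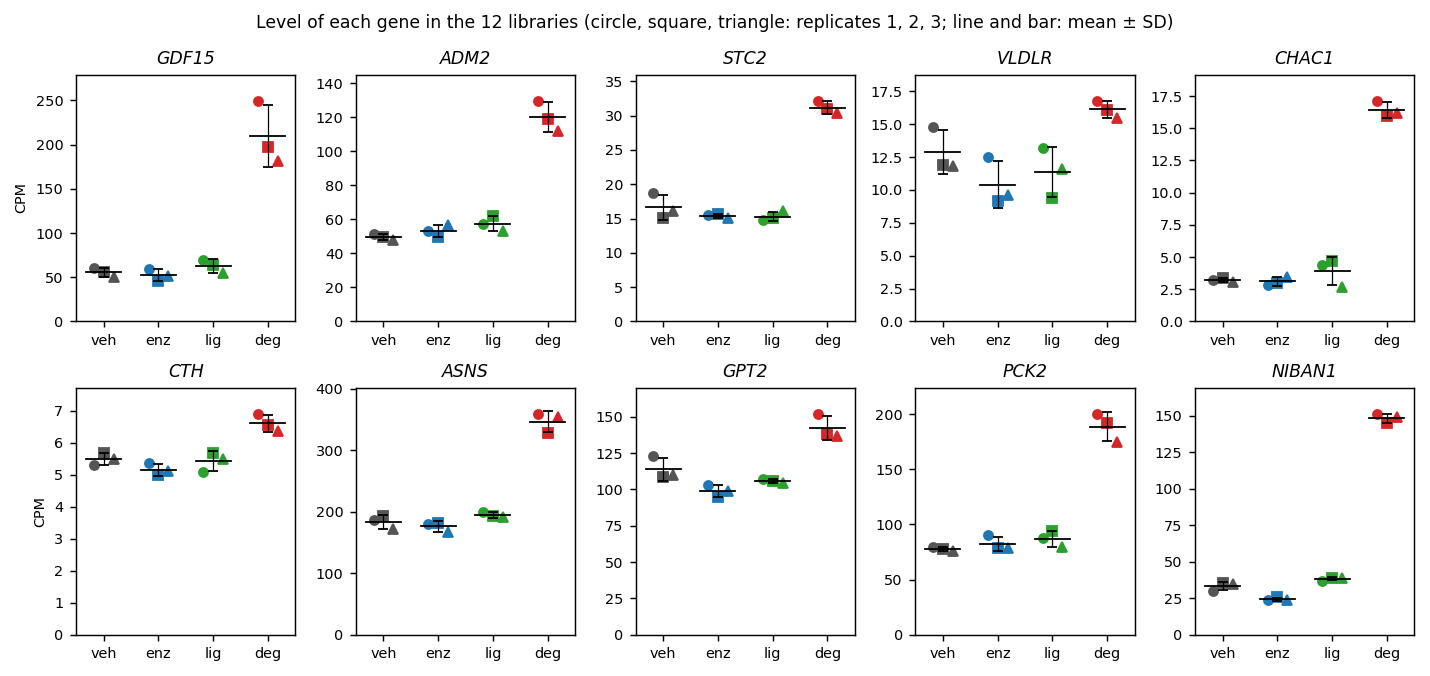
Level of each of the 10 genes in every library, in CPM on an axis from 0, for vehicle (veh), enzalutamide (enz), the ligand (lig) and the degrader (deg); circles, squares and triangles are replicates 1, 2 and 3, and lines with bars are mean ± SD. The 3 degrader libraries lie above the other 9 in every panel.

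The secreted factors are GDF15, ADM2 and STC2. GDF15, a cytokine of the TGF-beta superfamily that acts on a brainstem receptor to reduce food intake, stood at 59.9, 56.4 and 50.2 CPM in the vehicle libraries and at 249, 198 and 182 CPM in the degrader libraries. With enzalutamide it was at 59.6, 45.7 and 51.4 CPM and with the ligand at 69.7, 64.0 and 54.5 CPM. The lowest degrader library was thus far above the other 9, which overlapped between groups, and degrader replicate 1 was well above the other two. GDF15 rose with the degrader by 1.92 (SE 0.13, edgeR adjusted p = 6.45e-07), or 3.78-fold with a 95% confidence interval of 3.08 to 4.63. Without degrader replicate 1 the log2 fold change was 1.77 (edgeR adjusted p = 1.23e-07). A microRNA gene inside GDF15, MIR3189, had 3 to 12 reads a library, so it could take few reads from its host.

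ADM2 encodes adrenomedullin 2, also called intermedin, a peptide of the calcitonin family. Its level was 51.3, 49.9 and 47.8 CPM with vehicle, 53.4, 49.7 and 56.6 CPM with enzalutamide and 57.4, 61.8 and 53.4 CPM with the ligand. In degrader libraries it was 129.7, 119 and 112 CPM, above all the others. The rise against vehicle was 1.28 (SE 0.07, edgeR adjusted p = 7.41e-10), or 2.42-fold (2.19 to 2.67). Adrenomedullin peptides act on the receptor CALCRL in a complex with RAMP proteins. CALCRL itself had 0.419 ± 0.0293 CPM with vehicle and 0.252 ± 0.0550 CPM with the degrader (mean ± SD, n = 3), a fall of 0.71 on the log2 scale (SE 0.26, edgeR adjusted p = 0.0442) at a very low level. RAMP1, a partner of that receptor, had 146 ± 14.0 and 148 ± 15.1 CPM, and its difference did not pass (0.02, 95% confidence interval -0.20 to 0.23).

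STC2 encodes stanniocalcin 2, a secreted glycoprotein. It was at 18.7, 15.1 and 16.2 CPM with vehicle and at 32.1, 31.0 and 30.3 CPM with the degrader. Enzalutamide libraries held 15.5, 15.6 and 15.1 CPM and ligand libraries 14.7, 15.1 and 16.0 CPM. The degrader libraries lay close together, at an SD of 0.906 CPM, and vehicle replicate 1 was the highest of the other 9. STC2 rose by 0.90 (SE 0.07, edgeR adjusted p = 7.69e-08), or 1.87-fold (1.68 to 2.07).

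VLDLR encodes a cell surface receptor that takes up lipoproteins and binds reelin. Its level was 14.8, 11.9 and 11.8 CPM with vehicle, 12.5, 9.13 and 9.63 CPM with enzalutamide, and 13.2, 9.40 and 11.6 CPM with the ligand. In degrader libraries it was 16.8, 16.1 and 15.5 CPM. Replicate 1 was the highest library of all 4 groups for this gene. Vehicle replicate 1 came within 1 CPM of the lowest degrader library. Against vehicle the log2 fold change was 0.33 (95% confidence interval 0.06 to 0.59, edgeR adjusted p = 0.0605), which did not pass. It passed by DESeq2 (0.32, adjusted p = 0.0376) and without vehicle replicate 1 (0.44, edgeR adjusted p = 0.0205), and in 7 of 14 alternatives in all.

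CHAC1 and CTH act on glutathione and its sulfur. CHAC1 encodes a gamma-glutamylcyclotransferase that breaks down glutathione in the cytosol, and CTH encodes cystathionine gamma-lyase, which releases cysteine from cystathionine. CHAC1 had 3.18, 3.38 and 3.07 CPM with vehicle and 17.1, 16.0 and 16.2 CPM with the degrader. It had 2.83, 3.01 and 3.48 CPM with enzalutamide and 4.36, 4.69 and 2.70 CPM with the ligand, where replicate 3 was low and the other two were above every vehicle library. The degrader libraries were tightly grouped and more than 10 CPM above any other. CHAC1 rose by 2.35 (SE 0.14, edgeR adjusted p = 3.78e-09), or 5.11-fold (4.14 to 6.31), the 20th largest log2 fold change of the 17702 genes.

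CTH was at 5.29, 5.69 and 5.49 CPM with vehicle and 6.88, 6.54 and 6.38 CPM with the degrader. Libraries with enzalutamide had 5.36, 4.98 and 5.10 CPM and those with the ligand 5.07, 5.68 and 5.49 CPM. The degrader group lay above the others by a small margin, and the other 3 groups overlapped. CTH rose by 0.27 (SE 0.08, edgeR adjusted p = 0.0195), or 1.20-fold (1.07 to 1.36), the smallest change among the called members. This call was lost without vehicle replicate 1 (edgeR adjusted p = 0.0727), without degrader replicate 1 (0.076), and without replicate 1 of every group (0.182).

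ASNS, GPT2 and PCK2 are enzymes of amino acid and carbon metabolism. ASNS makes asparagine from aspartate and glutamine. It stood at 186, 192 and 171 CPM in vehicle libraries, 181, 181 and 167 CPM with enzalutamide and 200.2, 193 and 191 CPM with the ligand. Degrader libraries held 359, 328 and 354 CPM, the highest CPM of the 10 members. The rise was 0.92 (SE 0.05, edgeR adjusted p = 2.03e-09), or 1.89-fold (1.75 to 2.04). A read-through locus, CZ1P-ASNS, overlaps ASNS, and how the counting divided shared reads is not given in the sources used here. CZ1P-ASNS was uneven, with 349 to 583 reads a library for vehicle, 65 to 372 for enzalutamide, 46 to 312 for the ligand and 768 to 1824 for the degrader. At 6.71 ± 2.64 CPM with vehicle and 16.5 ± 6.63 CPM with the degrader, it was small beside ASNS.

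The ASNS and CHAC1 promoters are shown because, of the 10 genes, these are the ones in whose promoter windows a match to the core of the C/EBP-ATF response element was found. The core was searched as TGATGNAA on both strands of RefSeq promoter windows (GRCh38.p14) that run from 250 bases before to 50 bases after a gene's start. It was present in 2 of the 10 windows of the 9 members matched, as ASNS has 2 windows, and in 2.09% of 18552 windows of genes in the count table. GPT2 is the member that was not matched. The 250 bases before the start are printed 5′ to 3′ on the gene's strand, with the matching bases in capitals. The ASNS stretch is chr7:97872409-97872658 on the minus strand, with the match starting 68 bases before the start, and the CHAC1 stretch is chr15:40953221-40953470 on the plus strand, with a match on the opposite strand 209 bases before it.
ASNS: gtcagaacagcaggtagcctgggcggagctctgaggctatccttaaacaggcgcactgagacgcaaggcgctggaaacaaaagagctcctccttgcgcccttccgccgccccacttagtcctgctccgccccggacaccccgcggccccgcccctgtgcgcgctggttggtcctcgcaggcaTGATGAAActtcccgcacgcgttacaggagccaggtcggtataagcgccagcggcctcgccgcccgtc
CHAC1: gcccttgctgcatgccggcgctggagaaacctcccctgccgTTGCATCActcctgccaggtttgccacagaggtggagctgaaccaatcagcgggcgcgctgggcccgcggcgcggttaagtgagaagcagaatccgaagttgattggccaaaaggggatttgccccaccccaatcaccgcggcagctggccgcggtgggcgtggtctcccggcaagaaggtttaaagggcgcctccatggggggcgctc
A match is a description of these letters, and binding was not measured.

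GPT2, the mitochondrial alanine aminotransferase that joins pyruvate and glutamate metabolism, was at 123, 109 and 110.0 CPM with vehicle and at 152, 138 and 137 CPM with the degrader. Its level was 103, 95.02 and 99.3 CPM with enzalutamide and 107, 106 and 104 CPM with the ligand, in each case below all 3 vehicle libraries. GPT2 rose with the degrader by 0.32 (SE 0.06, edgeR adjusted p = 0.000297), or 1.25-fold (1.15 to 1.36).

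PCK2 encodes the mitochondrial phosphoenolpyruvate carboxykinase, which makes phosphoenolpyruvate from oxaloacetate. It was at 79.5, 78.0 and 75.8 CPM with vehicle, 89.98, 78.4 and 78.3 CPM with enzalutamide and 87.8, 93.9 and 79.5 CPM with the ligand. The degrader libraries, at 199.8, 192 and 174 CPM, were all above the other 9. PCK2 rose by 1.28 (SE 0.07, edgeR adjusted p = 9.96e-10), or 2.43-fold (2.19 to 2.68). NRL, a gene whose span overlaps PCK2 on the opposite strand, had 77 to 139 reads a library.

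NIBAN1 encodes a stress-induced cytosolic protein annotated as an apoptosis regulator. It stood at 30.3, 35.3 and 34.6 CPM with vehicle and 151, 145 and 149 CPM with the degrader. With enzalutamide it was at 23.9, 25.5 and 23.8 CPM, below all vehicle libraries, and with the ligand at 37.1, 39.0 and 39.0 CPM, above all of them. NIBAN1 and GPT2 were the members in which none of the 4 groups overlapped, in different orders, as was so of 0.627% of all genes. NIBAN1 rose with the degrader by 2.15 (SE 0.06, edgeR adjusted p = 2.83e-13), or 4.44-fold (4.07 to 4.84), and only 2 of the 17702 genes had a smaller p in that comparison.

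**Figure D2:**
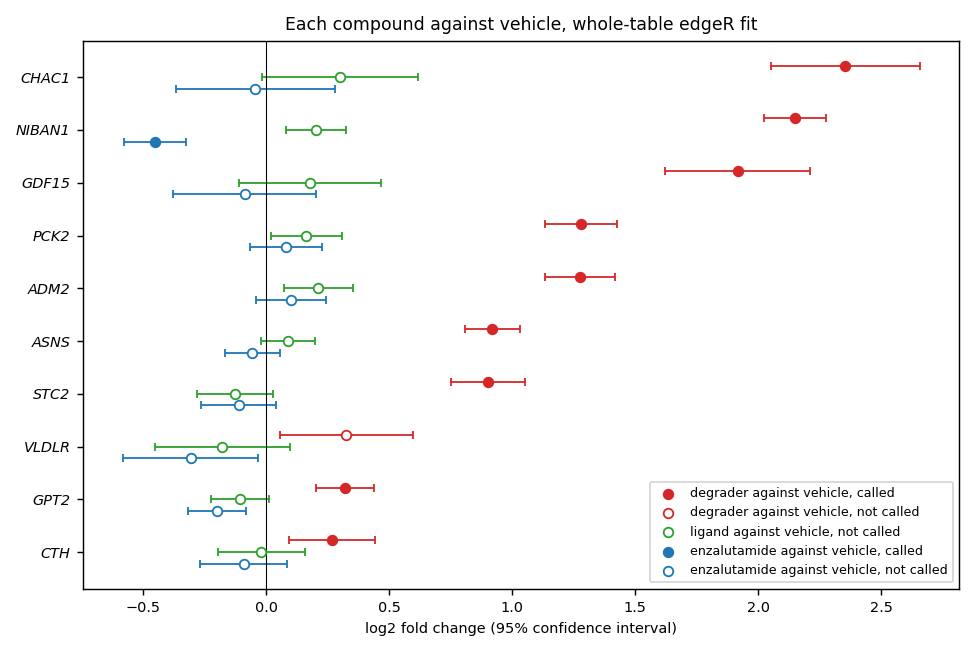
Log2 fold change of each gene for the degrader, the ligand and enzalutamide against vehicle, with 95% confidence intervals; filled points passed at an adjusted p under 0.05 in the fit over all genes. For the degrader 9 of 10 points are filled, from 0.27 (CTH) to 2.35 (CHAC1), and beside them a single filled point is NIBAN1 with enzalutamide, at -0.45.

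NIBAN1 fell with enzalutamide, and no other member passed by edgeR without a replicate term. NIBAN1 fell by 0.45 on the log2 scale (SE 0.06, edgeR adjusted p = 0.000263), from 33.4 ± 2.70 to 24.4 ± 0.975 CPM (mean ± SD, n = 3), lower in 3 of 3 libraries than every vehicle library. Of all genes, 1.09% were called lower and 0.35% higher in this comparison. The other 9 members had log2 fold changes from -0.31 (VLDLR, 95% confidence interval -0.58 to -0.03, edgeR adjusted p = 0.427) to 0.10 (ADM2, -0.04 to 0.24, 0.67). GPT2 had -0.20 (-0.32 to -0.08, 0.113) without overlap between the groups, where 8.19% of genes were lower without overlap. The median of the 10 was -0.09, beside 0.00 for all genes.

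With the ligand, 0 of 10 members passed against vehicle by edgeR, and 0 by DESeq2 or limma-voom. At an unadjusted p under 0.05 there were 3 by edgeR, beside 7.33% of all genes: NIBAN1 (0.20, 95% confidence interval 0.08 to 0.33, edgeR adjusted p = 0.294), ADM2 (0.21, 0.07 to 0.35, 0.386) and PCK2 (0.16, 0.02 to 0.31, 0.616). Few genes passed at all in this comparison, 0.203% higher and 0.0339% lower. ADM2 and NIBAN1 were above every vehicle library, as were 5.61% of genes, and GPT2 was below every one, as were 5.71%. CHAC1 had the largest value, 0.30 (-0.02 to 0.62, edgeR adjusted p = 0.701), with an SD of 1.07 CPM around a mean of 3.92 CPM. Without ligand replicate 3 it was 0.50 and passed (edgeR adjusted p = 0.0423). Taken one gene at a time, the 95% confidence intervals reached up to 0.62 (CHAC1) and down to -0.45 (VLDLR) on the log2 scale. They set no joint bound for the 10 members, and the CHAC1 interval rests in part on the low ligand replicate 3.

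Set directly against enzalutamide, the ligand left 1 member higher, NIBAN1, by 0.65 (SE 0.06, edgeR adjusted p = 3.82e-06, higher in 3 of 3 libraries), where 1.37% of genes were called higher and 0.667% lower. ASNS and GPT2 were also higher without overlap, as NIBAN1 was and 6.56% of all genes were, but did not pass (edgeR adjusted p = 0.296 and 0.736). CHAC1 was at 0.34 (0.02 to 0.66, 0.48), and at 0.54 (0.0077) without ligand replicate 3. The order of NIBAN1 means was therefore degrader, ligand, vehicle and enzalutamide. Of these neighbours, ligand and vehicle did not differ past the threshold, and the other steps did.

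Against each of the other compounds, all 10 members were higher with the degrader and called, VLDLR included. In these comparisons 16.3% of genes were called higher against enzalutamide and 14.3% against the ligand. All 10 also lay above without overlap, as 23.9% and 20.1% of genes did. In each of the 2 comparisons 6 members had a log2 fold change of at least 1, a size at which 1.11% and 0.836% of genes were called higher. The 3 comparisons share the degrader libraries, so they are not independent of each other. Against enzalutamide the log2 fold changes ran from 0.36 (CTH, SE 0.08, edgeR adjusted p = 0.00317) to 2.60 (NIBAN1, SE 0.06, 2.34e-14), with a median of 1.10. Against the ligand they ran from 0.29 (CTH, SE 0.08, 0.0153) to 2.06 (CHAC1, SE 0.14, 2.3e-08), with a median of 1.05. Against the ligand, NIBAN1 (1.95) had the smallest p of all 17702 genes.

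VLDLR was higher with the degrader than with enzalutamide by 0.63 (SE 0.13, edgeR adjusted p = 0.00137) and than with the ligand by 0.50 (SE 0.13, 0.00763). GPT2 was higher by 0.52 and 0.43, against 0.32 over vehicle. STC2 had 1.01 and 1.03. The CTH call against the ligand was lost without ligand replicate 1 (edgeR adjusted p = 0.0697), degrader replicate 1 (0.0604) or replicate 1 of every group (0.204).

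In 4 members (STC2, VLDLR, GPT2 and CTH) the order of means put vehicle next below the degrader, and in the other 6 the ligand came next. For none of the 10 did ligand and vehicle differ past the threshold. Enzalutamide gave the lowest mean of 7 members; in ADM2 and PCK2 it was vehicle, and in STC2 the ligand.

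Levels of different genes are compared on the authors' FPKM scale, which divides by transcript length. With vehicle, ASNS was the highest at 69.3 ± 5.13 FPKM (mean ± SD, n = 3), then GDF15 at 41.8 ± 3.86, PCK2 at 32.2 ± 0.932, GPT2 at 25.8 ± 1.64 and ADM2 at 10.5 ± 0.435 FPKM. NIBAN1 followed at 4.38 ± 0.384, STC2 at 2.81 ± 0.288, CTH at 2.37 ± 0.105, CHAC1 at 1.90 ± 0.118 and VLDLR at 1.27 ± 0.160 FPKM. With enzalutamide and with the ligand the order was the same, although CTH and CHAC1 were level with the ligand (2.33 ± 0.119 and 2.33 ± 0.602 FPKM).

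With the degrader GDF15 came first at 158 ± 26.7 FPKM and ASNS next at 132 ± 5.76 FPKM. The libraries were 188, 150.1 and 136 FPKM for GDF15 and 137, 125 and 133 FPKM for ASNS. GDF15 was thus above ASNS in every degrader library, by under 3 FPKM in replicate 3. How reads shared by ASNS and CZ1P-ASNS were divided is not given, and its part in this order was not tested. In every vehicle library ASNS was above GDF15, at 70.0, 74.0 and 63.8 against 44.9, 43.1 and 37.5 FPKM. CHAC1, at 9.81 ± 0.322 FPKM, moved above STC2 (5.27 ± 0.167) and CTH (2.86 ± 0.116). The 10 genes together summed to 192 ± 11.01 FPKM in vehicle libraries and 464 ± 39.3 in degrader libraries, beside 184 ± 8.13 for enzalutamide and 205 ± 9.60 for the ligand (mean ± SD, n = 3). Of the rise with the degrader, GDF15 made up 42.7%, ASNS 23.0% and PCK2 16.8%, while CHAC1, the largest fold change, made up 2.90%.

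Relatives of the members did not move as a group. Of 16 relatives and receptor genes reported, 4 rose and 3 fell with the degrader against vehicle, beside 16.4% of all genes called in each direction, with a median of -0.10. CHAC2, the paralog of CHAC1, was at 4.20 ± 0.187 CPM with vehicle and 3.80 ± 0.376 CPM with the degrader (-0.15, 95% confidence interval -0.40 to 0.11, edgeR adjusted p = 0.394). NIBAN2 was at -0.19 (-0.34 to -0.04, 0.0501), below the vehicle libraries in every degrader library. ASNSD1 had -0.07 (-0.20 to 0.05, 0.38), and GPT, which encodes the cytosolic alanine aminotransferase, had -0.10 (-0.31 to 0.12, 0.498).

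STC1, the other stanniocalcin, fell with the degrader by 0.79 on the log2 scale (SE 0.24, edgeR adjusted p = 0.0228), from 5.73, 4.36 and 4.61 CPM to 4.18, 2.08 and 2.21 CPM. It was about as low with enzalutamide, at 3.20, 2.37 and 2.84 CPM (-0.81 against vehicle, edgeR adjusted p = 0.18), and with the ligand, at 3.72, 2.32 and 3.51 CPM (-0.63, 0.576). Among peptides related to ADM2, CALCA, the gene of calcitonin and of a calcitonin gene-related peptide, rose (edgeR adjusted p = 3.27e-12) from 3.14 ± 0.288 to 25.1 ± 1.76 CPM, and CALCB by 0.47. ADM, which encodes adrenomedullin, was at -0.16 (-0.59 to 0.27, 0.595). LRP8, a lipoprotein receptor that like VLDLR binds reelin, was at 0.03 (-0.14 to 0.19, 0.825).

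CBS, which forms the cystathionine that CTH cleaves, rose by 0.58 (SE 0.06, edgeR adjusted p = 1.43e-06), from 135 ± 3.50 to 202 ± 8.81 CPM. The aspartate aminotransferases split, GOT1 rising by 0.20 and the mitochondrial GOT2 falling by 0.45 on the log2 scale. GFRAL, the receptor of GDF15, and PCK1, the cytosolic counterpart of PCK2, were not among the genes listed.

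**Figure D3:**
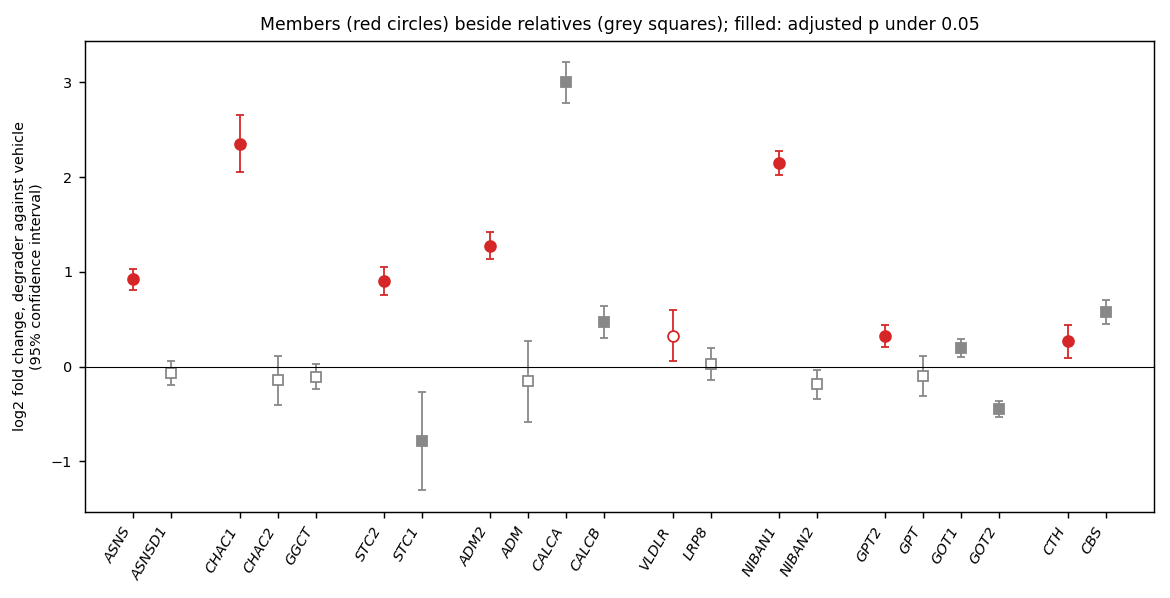
Log2 fold change with 95% confidence interval for the degrader against vehicle, for 8 of the genes (red circles) and the relatives of each (grey squares); filled symbols passed at an adjusted p under 0.05. CHAC1, NIBAN1, ASNS and STC2 lie well above relatives whose values are below 0 (GGCT at -0.11), whereas CALCA and CBS lie above ADM2 and CTH.

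Of 40 other genes of the ATF4 pathway, 35 rose and 1 fell with the degrader against vehicle, beside 16.4% of all genes called in each direction. Their median was 0.75, beside 0.01 for all genes. The list was chosen with earlier results of these data known. The 4 with the smallest p were ALDH1L2, a mitochondrial folate enzyme (1.32), DDIT3, the transcription factor CHOP (1.64), BEX2 (1.55) and SESN2, an inhibitor of mTORC1 signalling (1.54). The gene that fell was ALDH18A1, an enzyme of proline synthesis (-0.24, SE 0.04, edgeR adjusted p = 0.000119). ATF4 itself rose by 0.79, from 359.8 ± 14.9 to 624 ± 34.6 CPM. CHAC1, NIBAN1 and GDF15 exceeded the largest of these 40 values, that of DDIT3. With enzalutamide 0 of the 40 passed against vehicle by edgeR (median 0.01), and with the ligand 0 (median 0.07); at an unadjusted p under 0.05 there were 2 and 14, beside 9.88% and 7.33% of all genes. By DESeq2 0 and 3 of the 40 passed, beside 0.866% of all genes with an adjusted p for the ligand.

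**Figure D4:**
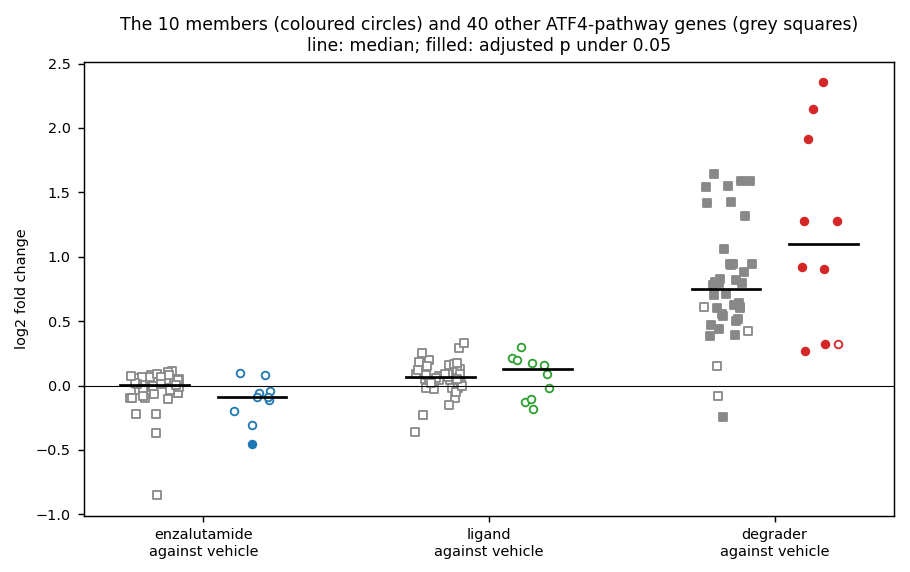
Log2 fold change against vehicle of the 10 genes (coloured circles) and of 40 other genes of the ATF4 pathway (grey squares) for each compound; lines are medians and filled symbols passed at an adjusted p under 0.05. The medians are -0.09 and 0.01 with enzalutamide, 0.13 and 0.07 with the ligand, and 1.10 and 0.75 with the degrader.

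The genes whose levels ran most like the mean of the 10 over the 12 libraries were ARHGEF2, DDIT3, GTPBP2, HERPUD1 and ATF3, with Pearson's r from 0.989 to 0.992 on log2 CPM. They were the first 5 of 11729 other genes with a mean of at least 5 CPM. The 12 points share their groups and libraries, and r is given as a description only. ARHGEF2 went from 42.5 ± 3.31 CPM with vehicle to 159 ± 10.8 CPM with the degrader.

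Within the degrader group, replicate 1 was the highest library for all 10 members, and replicate 3 the lowest for 7. The margin was wide for GDF15, at 0.26 above the group mean in log2 CPM, and narrow for NIBAN1, at 0.03. Replicate 1 was the highest for fewer members in the other groups: 6 with vehicle, 5 with enzalutamide and 4 with the ligand. Replicate 3 was also the lowest for 6 members with vehicle, 6 with the ligand and 4 with enzalutamide. All degrader calls but that of CTH against vehicle and against the ligand held without degrader replicate 1. CHAC1 in ligand replicate 3, at 0.49 below its group mean, was the widest deviation of any member in any library.

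**Figure D5:**
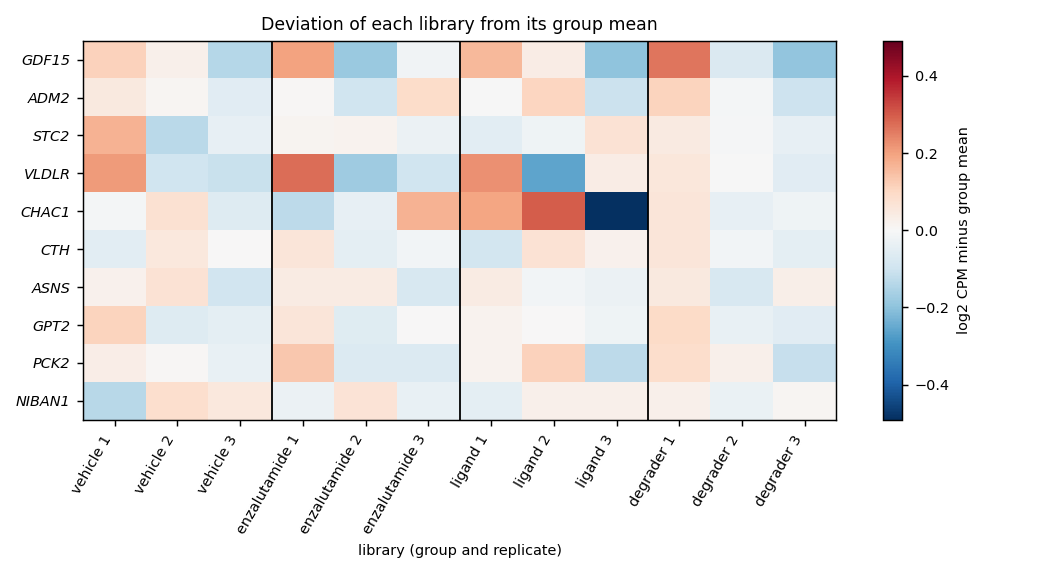
Deviation of each library from the mean of its group, in log2 CPM (prior count 2), for each of the 10 genes; red is above the group mean and blue below. Degrader replicate 1 is red in all 10 rows, from 0.03 (NIBAN1) to 0.26 (GDF15), and the darkest cell is CHAC1 in ligand replicate 3, at -0.49.

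In the authors' deposited table, all 10 members had an adjusted p under 0.05 for the degrader against vehicle, with signed linear fold changes from 1.20 (CTH) to 5.09 (CHAC1). The authors' deposited table gave VLDLR a fold change of 1.25 and an adjusted p of 0.0376. That adjusted p equals the one from DESeq2 above, on the same counts, so it is not independent of it. For enzalutamide the authors' deposited table called NIBAN1 alone among the 10, at -1.37 (adjusted p = 3.27e-10), with GPT2 at an adjusted p of 0.0514. For the ligand the authors' deposited table called 0 of the 10.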

How the data were processed

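Per the labels' protocols, RNA was extracted with Trizol after 24 h of treatment, and libraries were made with a stranded mRNA kit. Per the submitters' processing notes, HISAT2 and StringTie were used with GRCh37; versions and counting options are not given in the sources used here. The authors deposited, per the file headers, raw read counts and FPKM values per gene and library. The authors' signed linear fold change, a score here, and their adjusted p-value were used only where named; 24 other per-library columns were not used. Every listed gene has at least 1 read in each library. Counts were filtered with filterByExpr (minimum count 10, total 15), scaled by TMM (factors 0.987 to 1.016) and fitted over all 12 libraries with edgeR 4.0.16 in R 4.3.3 (robust quasi-likelihood, 8 residual degrees of freedom). The fit was run on counts simulated from its own estimates, without a replicate effect. That run checks the code and cannot show how well the model suits these data. Alternatives used DESeq2 1.42.0, limma 3.58.1 (voom), other scaling, no filter, only the groups compared, the replicate number as a block, and left-out libraries.

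Every member was named, with relatives, up to 4 genes of smallest p and opposite movers of each list, and the 5 nearest patterns; ATF4 and GCLC with enzalutamide were added after their values were seen. The members and lists were chosen with earlier results of these data known. A few listed genes, and the protein that the labels give as the degrader's target, are not reported here.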

Additional observations from a re-analysis of the deposited data

How the results depend on the processing

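Of 840 alternative values of single members, 822 stayed on their side of the threshold, 12 passed where they had not and 6 no longer passed; 0 called values changed sign. Of the 822, 7 changed sign, all of members that were not called and within 0.05 of 0 on the log2 scale. The count of called members was within 1.5 times of the reported one in 81 of 90 cases. With a log2 fold change of at least 1 required, the count was 5 for the degrader against vehicle, 6 against enzalutamide, 6 against the ligand, and 0 for enzalutamide against vehicle and for the ligand against enzalutamide; the stricter rule sets these by construction. With libraries left out, called members ranged from 8 to 9 for the degrader against vehicle, stayed at 10 against enzalutamide, ranged from 9 to 10 against the ligand, stayed at 1 for enzalutamide against vehicle, and ranged from 0 to 1 for the ligand against vehicle and from 1 to 2 for the ligand against enzalutamide. The higher counts for the ligand came without ligand replicate 3, when CHAC1 passed.

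With the replicate number as a block, 3 members passed for enzalutamide against vehicle (VLDLR at -0.31, adjusted p = 0.04, and GPT2 at -0.20, 0.00515, beside NIBAN1, by edgeR) and 2 for the ligand against enzalutamide (GDF15 at 0.26, 0.0139, beside NIBAN1). With the block VLDLR also passed for the degrader against vehicle (adjusted p = 0.0018); no other member's call changed. Over all genes the block raised the calls of the degrader against vehicle from 5795 to 7265 and of enzalutamide against vehicle from 255 to 553. Same-numbered libraries deviated together only weakly (r over genes from -0.03 to 0.21). No comparison had every same-numbered r above the minimum required, so the numbers do not pair the samples by that rule. Yet 4 to 6 of the 6 libraries of a comparison correlated best with their own number. What same-numbered libraries shared was not tested. VLDLR against vehicle depended on the tool and libraries (log2 fold change 0.27 to 0.44, adjusted p from 0.0018 to 0.178); the cause was not tested. Depth was least for CHAC1, at 151 reads in its lowest library.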

Other observations

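Gene lists that surround the members' enzymes moved in both directions with the degrader against vehicle. Of 17 genes of glutathione and sulfur amino acid metabolism, 7 rose and 5 fell (median -0.11), beside 16.4% of all genes called in each direction. The rises included SLC7A11, the cystine transporter (1.59, which the ATF4 list also holds), CBS and OPLAH, the oxoprolinase that recycles a product of CHAC1 (0.41). The falls were GSR, the glutathione reductase (-0.36), GGT1 (-0.36), GSS (-0.26), SQOR (-0.24) and GCLC, the catalytic subunit that starts glutathione synthesis (-0.23). GCLC also fell with enzalutamide, by 0.58 on the log2 scale (SE 0.05, edgeR adjusted p = 9.81e-07). Of 16 genes of mitochondrial carbon and aminotransferases, 4 rose and 5 fell (median -0.01): BCAT1 (1.66), ASS1 (1.27), ME1 (0.31) and GOT1 rose, and the falls included MPC2, a subunit of the mitochondrial pyruvate carrier (-0.57), and GOT2.

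In the following lists too, 16.4% of all genes called in each direction is the share to compare. Of 18 genes of the ATF6 and XBP1 branches of the unfolded protein response, 11 rose and 0 fell (median 0.38), led by ERN1, which encodes the sensor IRE1 (0.99), ATF6 (0.61), HYOU1 and SEL1L. GDF15 is also a p53 target: of 20 other p53 targets, 6 rose, 3 fell and 11 were not called (median 0.07). TP53INP1 was at 1.08, BBC3 at 0.76 and TNFRSF10B, a death receptor gene, at 0.60. The part of p53 in these changes was not tested. The 3 that fell, a share near that of all genes, were POLH (-0.39), DDB2 (-0.32) and AEN (-0.16). Of 11 lipoprotein receptor and ligand genes reported, 4 rose and 1 fell (median 0.06). RELN, which encodes reelin, a ligand of VLDLR, rose by 2.06 (SE 0.08, edgeR adjusted p = 8.82e-12), from 11.6 ± 0.193 to 48.5 ± 0.980 CPM (mean ± SD, n = 3). MYLIP, which encodes a ubiquitin ligase that acts on VLDLR, fell by 0.49 on the log2 scale.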
